A study of Homo sapiens with 6 samples.

Results

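The genes described here are 33 regulators and executors of apoptosis: members of the BCL2 family, caspases, the apoptosome and its mitochondrial partners, and inhibitor of apoptosis (IAP) proteins. They were listed by gene symbol, and all 33 were found among the 27722 named genes of the series. RNA came from MUTZ3, a myelomonocytic leukaemia line with an inversion of chromosome 3 that activates EVI1, the oncogenic product of MECOM. The comparison asks what changes when a peptide blocks the contact of EVI1 with the CTBP corepressors. The 6 libraries fell into 3 groups of 2, all harvested at 72 h after retroviral transduction.

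Cells of the PLDLS group carried p50MX-3xFLAG-3xNLS-4xPLDLS-Zeo, which encodes 4 copies of the peptide that blocks this contact per the labels. Cells of the PLASS group carried p50MX-3xFLAG-3xNLS-4xPLASS-Zeo, the matched peptide without that effect. The empty vector (EV) group held a different vector in each library, p50MX-3xFLAG in EV 1 and p50MX-Zeo in EV 2, where the number is the replicate number. All groups shared αMEM with 20% fetal calf serum and 20% medium conditioned by the bladder carcinoma line 5637. MUTZ3 is 1 established line. Whether the replicates were grown as separate cultures is not in the labels, and the p-values then reflect no more than the spread of these libraries, which may be technical.

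In mitochondrial apoptosis, BH3-only proteins sense stress and either neutralise the anti-apoptotic BCL2 proteins or activate the pore formers BAX and BAK1. Pores in the outer mitochondrial membrane release cytochrome c and SMAC (DIABLO), cytochrome c assembles APAF1 into the apoptosome, and caspase-9 is activated on it, while XIAP holds caspases in check. Myeloid leukaemia cells are known to lean on anti-apoptotic members such as BCL2 and MCL1, which are drug targets in this disease.

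Library totals were 5582078 to 35800826 estimated reads, with PLDLS 2 the shallowest and EV 1 the deepest. The 9 markers listed for myelomonocytic leukaemia were all detected and summed to 1492 to 2250 TPM (transcripts per 1e6, a level corrected for transcript length). CD34 (515 to 904 TPM) and PTPRC (544 to 686) were the highest of the 9 in each library. CD14 was the lowest, at 1.29 to 4.13 TPM and below the B cell sum in each library, and ITGAM was at 6.11 to 17.4. The 4 T cell markers summed to 1.59 to 5.07 TPM, the 4 B cell markers to 8.06 to 16.6, the 5 erythroid markers to 0.0620 to 0.972, the 4 fibroblast markers to 0 to 0.393 and the 5 epithelial markers to 2.82 to 5.02. In bulk RNA, fewer cells of a type and less RNA per cell cannot be told apart. The libraries carry no strand, and antisense reads over a member cannot be separated from its own. Levels between genes are compared in TPM. Differences between groups are log2 differences of CPM (reads per 1e6) scaled by library composition, fitted over all 6 libraries with edgeR, without and with the replicate number as a block. A gene is called where its adjusted p over the 14631 genes tested is under 0.05. The 3 comparisons share libraries and are not independent of each other.

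Promoters are shown for 3 called members with a window in the table: BMF, which was higher with PLDLS, and PMAIP1 and BCL2A1, which shifted most between the replicate numbers. Each is the 250 bases before an annotated start of the gene, 5′ to 3′ on the gene's strand, from RefSeq (GRCh38.p14). They lie at chr15:40108880-40109129 (minus strand), chr18:59899746-59899995 (plus strand) and chr15:79971197-79971446 (minus strand). BMF has another window, at chr15:40106967-40107216, which is not printed. Capitals mark matches to the motifs searched.
BMF: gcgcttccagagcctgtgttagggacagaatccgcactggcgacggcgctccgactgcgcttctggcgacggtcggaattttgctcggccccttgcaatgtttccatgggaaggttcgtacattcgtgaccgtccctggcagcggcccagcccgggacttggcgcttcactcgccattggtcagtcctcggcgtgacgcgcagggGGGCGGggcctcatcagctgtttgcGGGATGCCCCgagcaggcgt
PMAIP1: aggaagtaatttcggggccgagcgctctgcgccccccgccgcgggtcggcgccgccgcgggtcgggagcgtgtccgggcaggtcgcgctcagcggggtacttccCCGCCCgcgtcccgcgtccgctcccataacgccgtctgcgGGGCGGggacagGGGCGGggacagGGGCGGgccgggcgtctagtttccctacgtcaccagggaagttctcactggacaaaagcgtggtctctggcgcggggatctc
BCL2A1: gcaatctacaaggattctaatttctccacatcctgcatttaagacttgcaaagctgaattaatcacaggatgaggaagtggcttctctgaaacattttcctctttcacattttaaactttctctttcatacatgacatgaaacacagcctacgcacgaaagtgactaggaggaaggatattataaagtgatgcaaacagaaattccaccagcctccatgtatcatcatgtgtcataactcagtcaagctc

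Matches to 7 motifs were sought on both strands: the GC box (GGGCGG), the NF-kB consensus, and the 5 others named after the windows. The BMF window held 1 GC box, 45 to 40 bases before the start, and 1 match of the NF-kB consensus, 20 to 11 bases before it, where the consensus matched on both strands. The 2 matches did not overlap. That start lies within 5 bases of the annotated 5′ ends of 2 of the 4 BMF transcripts in the deposited tables. Another of the 4, with 4.73% to 52.8% of BMF TPM by library, starts at base 40106448, downstream of both BMF windows. The BMF window not printed held none of the 7 motifs. The PMAIP1 window held 4 GC boxes between 146 and 77 bases before its start, and the BCL2A1 window held none of the 7 motifs. A GC box was present in 42.6% of all 35116 windows of this length and an NF-kB consensus match in 9.96%. Of the 26 members with a window in the table, 20 had a GC box in at least 1 window and 2 (BMF and CASP2) an NF-kB consensus match. Counted by window, as for the shares of all windows, a GC box was in 29 of the members' 46 windows and an NF-kB consensus match in 2. The FOXO site TGTTTAC was in 2.98% of all windows. The GATA-type site AGATAA was in 9.17% and the cyclic AMP response element TGACGTCA in 1.65%. The E-box CACGTG was in 6.35%. AP-1 (TGANTCA) was in 6.57%. Each of these 5 was held by 1 to 3 of the 26 members. No binding of any factor was measured here.

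Across the 33 genes, mean levels spanned 0.0679 TPM for CASP5 to 349 TPM for MCL1. MCL1, a short-lived protein that holds BAK1 and BIM in check, had the highest level of the anti-apoptotic genes in every library, at 57.2% to 77.1% of the TPM of the 7 genes of this role. BCL2L1, which encodes BCL-xL, was the second in all 6 libraries, and MCL1 stood 2.73 to 8.34 times above it. BCL2, the target of venetoclax, had a mean of 34.4 TPM, BCL2A1 28.7 and BCL2L2 (BCL-w) 22.1. The third place went to BCL2 in 4 libraries and to BCL2A1 in PLASS 2 and EV 2. The 7 genes summed to 479 and 634 TPM in PLDLS 1 and 2, 442 and 658 in PLASS 1 and 2, and 451 and 459 in EV 1 and 2. The PLDLS and PLASS ranges overlapped, and both PLDLS libraries lay above both EV libraries, PLDLS 1 by little.

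**Figure D1:**
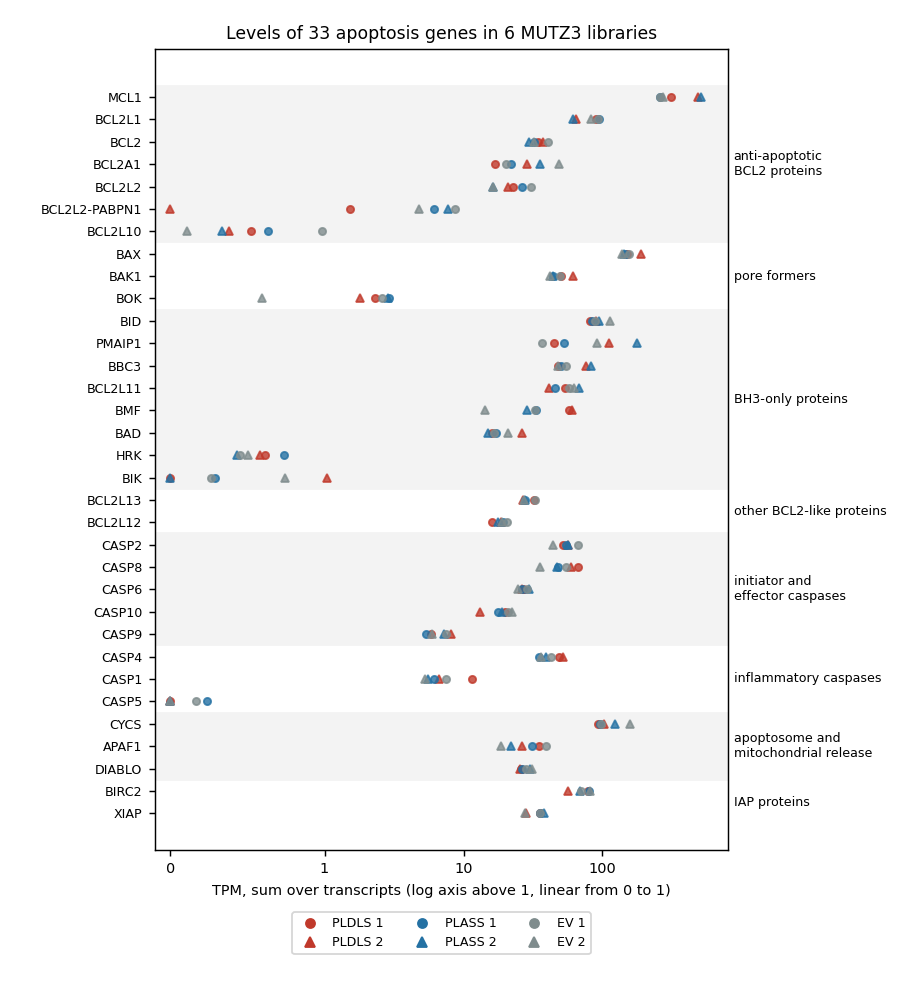
Levels of the 33 genes in TPM by library, with roles on the right and genes of a role in order of mean level. Circles are replicate 1 and triangles replicate 2, in 1 colour per group. The axis is linear from 0 to 1 and logarithmic above. MCL1 lies highest in all 6 libraries, and BCL2L10, BIK, HRK and CASP5 lie near or below 1 TPM.

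Among the other roles, the pore former BAX was at 137 to 188 TPM, BAK1 at 42.3 to 61.6 and the less studied BOK at 0.597 to 2.92. BID, the BH3-only protein that caspase-8 cleaves, led its role with a mean of 91.97 TPM, followed by PMAIP1 (NOXA) with 85.8, BBC3 (PUMA) with 60.0 and BCL2L11 (BIM) with 54.5. BMF, a BH3-only protein tied to the cytoskeleton, had a mean of 37.7 TPM and the BCL-xL antagonist BAD 18.7. CASP2 and CASP8 led the initiator and effector caspases with means of 55.1 and 51.9 TPM, and CASP9 had the lowest mean of that role, at 6.65. Cytochrome c (CYCS) had a mean of 112 TPM against 28.7 for APAF1 and 27.9 for DIABLO. The IAP genes BIRC2 (cIAP1) and XIAP were at 56.8 to 80.8 and 27.8 to 38.03 TPM. The 3 members that did not pass the expression filter were BCL2L10, BIK and CASP5, with at most 16, 5 and 2 estimated reads in any library.

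Transcript shares were steady for MCL1 and less so for BCL2L1. The long MCL1 transcript, which encodes the anti-apoptotic form, held 97.8% to 98.7% of MCL1 TPM. The largest of the 9 BCL2L1 transcripts, which encodes BCL-xL, held 63.3% to 84.1% of BCL2L1 TPM. That of the short pro-apoptotic BCL-xS form held 0% to 6.31%. Which form the other BCL2L1 transcripts encode was not examined, so the first share is not that of all BCL-xL. For BMF, the leading transcript held from 31.9% to 73.9%, and its 3 largest transcripts changed places between libraries of 1 group. Values of BMF are therefore given for the gene sum only.

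In PLDLS against PLASS, the peptide that blocks the contact against the matched control, 1 member passed the test with the block. It was BCL2L2-PABPN1, a readthrough of BCL2L2 into its neighbour PABPN1, which was lower with PLDLS. The fit without the block called 0 of the 30 members tested, where 0% of all genes were called, with 2 members at an unadjusted p under 0.05 (4.93% of all genes). DESeq2 called 1 member (0.590% of the 21017 genes with reads, under its own filter by mean count) and limma-voom 0 (0% of all genes). With the block, edgeR called 2.03% of all genes (1.52% higher and 0.513% lower with PLDLS) and 0 members higher and 1 lower, with 5 members at an unadjusted p under 0.05 (11.5% of all genes). Of the 30, 14 had a positive difference, against 48.9% of all genes, with a median of -0.024 (log2) against -0.0064 over all genes. The groups did not overlap for 7 members: BMF, CASP8, CASP4 and BAK1 were higher and BCL2L2-PABPN1, BOK and DIABLO lower in both PLDLS libraries. Over all genes, 29.1% did not overlap.

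In PLDLS against EV, BMF was higher and BCL2L2-PABPN1 lower in the fit with the block. Without it edgeR called 0 members, where 0.0137% of all genes were called, with 3 members at an unadjusted p under 0.05 (7.16% of all genes). DESeq2 called 2 members (1.28% of the 21017 genes with reads, under its own filter by mean count) and limma-voom 0 (0.0342% of all genes). With the block, 4.24% of all genes were called (3.24% higher and 1.00% lower with PLDLS), and the members' count was 1 higher and 1 lower, with 5 members at an unadjusted p under 0.05 (15.9% of all genes). Of the 30, 15 had a positive difference, against 47.4% of all genes, and the median was 0.0013 against -0.019. Both PLDLS libraries lay above both EV libraries for BMF, CASP8, CASP4, MCL1, BAK1 and HRK and below them for BCL2L2-PABPN1 and CASP10, which is 8 of 30 where 29.9% of all genes did not overlap. The EV group joins different vectors, and its libraries weighed on this comparison. With the block and without EV 1, where EV 2 stood alone and its spread was taken from PLDLS and PLASS, 12 members and 14.3% of all genes were called. Without EV 2, 2 members and 4.66% of all genes were called. The 12 were BMF, MCL1, BBC3, CASP8 and BOK (higher with PLDLS) and CYCS, BIRC2, CASP10, BCL2A1, BCL2L2-PABPN1, BCL2L1 and BID (lower).

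PLASS against EV sets the control peptide against empty vectors. No member was called in either fit, where 0% of all genes were called without the block and 0.0137% with it. The number of members at an unadjusted p under 0.05 was 0 without the block (0.690% of all genes) and 3 with it (3.35% of all genes), namely PMAIP1, MCL1 and BMF, all higher with PLASS. DESeq2 called 0 members without the block (0.0143% of its genes) and with it (0.0999%). So did limma-voom, without it (0% of all genes) and with it (0.00683%). With it, 11 of 30 members had a positive difference, against 49.2% of all genes, and the median was -0.038 against -0.0032. The groups did not overlap for BMF, BOK and XIAP, all higher with PLASS. Without EV 1, 6 members and 3.73% of all genes were called with the block: BMF, BBC3, BOK, MCL1 and PMAIP1 higher with PLASS and CYCS lower.

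**Figure D2:**
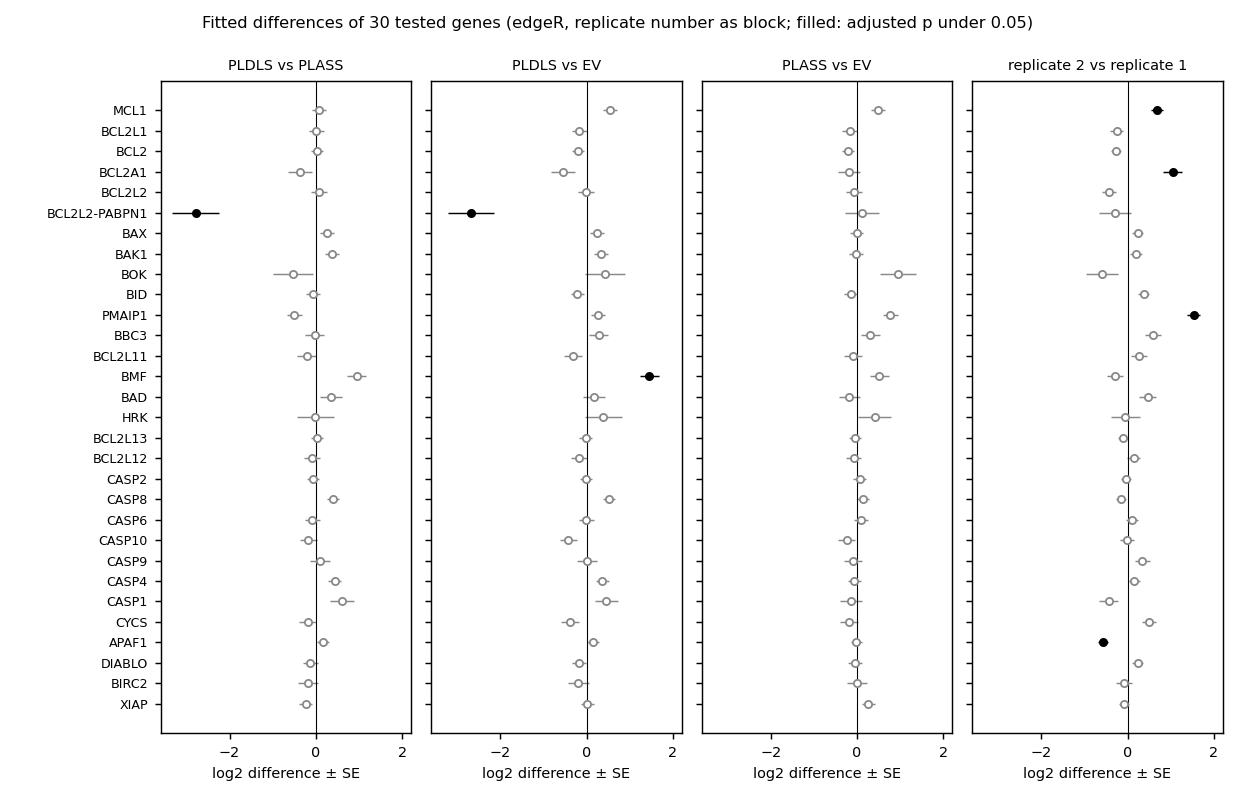
Log2 differences (± SE) of the 30 tested members from edgeR with the replicate number as a block, in 1 panel per comparison and with genes ordered by role. Filled points had an adjusted p under 0.05. BMF is the filled point on the right in PLDLS vs EV, BCL2L2-PABPN1 the filled point on the left in both PLDLS panels, and PMAIP1, MCL1, BCL2A1 and APAF1 are filled in the panel of replicate 2 against replicate 1.

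BMF (chr15:40087890-40108879) encodes a BH3-only protein that binds and neutralises anti-apoptotic members when released from the actin and myosin cytoskeleton. It was at 111 and 127 CPM in PLDLS 1 and 2, 67.0 and 57.4 in PLASS 1 and 2, and 57.4 and 31.4 in EV 1 and 2. Both PLDLS libraries lay above all 4 others, and EV 2 was the lowest. Group means were 119 ± 11.4 CPM for PLDLS, 62.2 ± 6.75 for PLASS and 44.4 ± 18.4 for EV (SD, n = 2 each). Against EV the log2 difference was 1.41 ± 0.29 (SE) with an edgeR adjusted p of 0.160 without the block, and 1.45 ± 0.22 with 0.00966 with it, a 2.74-fold higher level. It was called in all 16 settings run with the block (adjusted p 5.56e-08 to 0.0328) and in 2 of 15 other settings run without it. The difference with the block was 1.90 without EV 1 and 1.03 without EV 2.

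Against PLASS, BMF differed by 0.93 ± 0.29 without the block (edgeR adjusted p = 0.629) and 0.94 ± 0.22 with it (adjusted p = 0.0826), and it was not called in either. It was called in 6 of 16 settings with the block, with a range of adjusted p of 0.000101 to 0.512, and in 1 of 15 without it. Within the replicate numbers, PLDLS exceeded PLASS by 0.72 and 1.14 and EV by 0.95 and 2.01 on the log2 scale. PLASS exceeded EV by 0.51 ± 0.22 with the block (adjusted p = 1.00). These groups were apart in CPM only by the margin between 57.43 in PLASS 2 and 57.38 in EV 1. On the TPM scale the group means had the same order, and PLASS and EV overlapped, with 57.4 and 60.1 TPM in PLDLS 1 and 2, 33.4 and 28.4 in PLASS 1 and 2, and 32.4 and 14.4 in EV 1 and 2. The BMF promoter window printed above, not the only one of the gene, belongs to the member with the highest log2 difference of all 30 in both PLDLS comparisons.

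**Figure D3:**
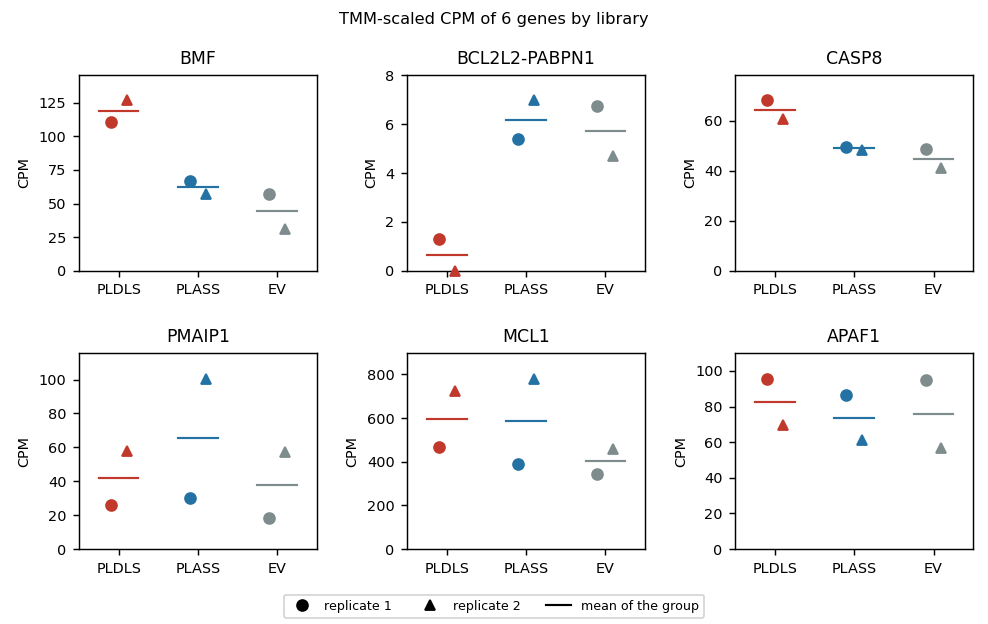
CPM of 6 members by library, each on its own axis from 0. Circles are replicate 1, triangles replicate 2 and bars the group means. BMF is highest in both PLDLS libraries and BCL2L2-PABPN1 lowest in them, while PMAIP1 and MCL1 are higher, and APAF1 lower, in replicate 2 than in replicate 1 of each group.

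BCL2L2-PABPN1 spans chr14:23306833-23326163 and begins at the same base as BCL2L2 (chr14:23306833-23311751). The GENCODE model of the readthrough has 9 exons, of which exons 1 to 3 lie within BCL2L2 and exon 4 begins at base 23322181, beyond its end. Its coding part begins in exon 3 and continues beyond the end of BCL2L2. The readthrough was listed with the anti-apoptotic role, and the function of its product was not examined. It was assigned 21.9 and 0 estimated reads in PLDLS 1 and 2, 112 and 86.4 in PLASS 1 and 2, and 257 and 84.7 in EV 1 and 2. Both PLDLS libraries lay below the other 4, and PLDLS 2 was also the shallowest. A count of 0 there allows up to 0.538 CPM before composition scaling (3 reads of that library, counting error only), against 1.33 in PLDLS 1 and 4.48 to 7.18 in the PLASS and EV libraries. The log2 difference with the block was -2.78 ± 0.55 against PLASS (edgeR adjusted p = 0.0408) and -2.67 ± 0.53 against EV (adjusted p = 0.0265). Without the block the adjusted p was 0.424 and 0.270. With the block it was not called by DESeq2 (adjusted p = 0.186 against PLASS and 0.182 against EV), nor against PLASS by limma-voom (0.0739) or with the effective-length offset (0.0518).

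Most words of the readthrough's GENCODE model are shared with its neighbours. Of the 1211 words of 31 bases in the GENCODE model of 1241 bases, 559 (46.2%) also occur in BCL2L2 transcripts and 624 (51.5%) in PABPN1 transcripts, and 28 (2.31%) in neither. The transcript quantified in the deposited tables is another model, of 2130 bases, whose sequence was not examined. How the authors' quantification divided reads between it and its neighbours was not tested, and its level is uncertain. BCL2L2 itself, counted alone, was at 31.9 and 31.5 CPM in PLDLS 1 and 2, 37.6 and 23.8 in PLASS 1 and 2, and 38.8 and 25.7 in EV 1 and 2. The ranges of the 3 groups overlapped, and its difference with the block was 0.068 ± 0.19 against PLASS and -0.010 ± 0.19 against EV. With both counted as 1 gene, the difference was -0.18 ± 0.17 against PLASS (adjusted p = 0.843) and -0.22 ± 0.17 against EV (adjusted p = 0.612). The sum was thus not called in either comparison. As the readthrough held 19.0% to 32.4% of the joint TPM in the PLASS and EV libraries, the sum can hardly show a change confined to it. The readthrough took 6.29% and 0% of the joint TPM in PLDLS 1 and 2, 19.0% and 32.4% in PLASS 1 and 2, and 22.1% and 22.8% in EV 1 and 2.

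The other tested genes listed with the anti-apoptotic role were not called between groups in either fit. MCL1 (chr1:150574558-150579610) was at 468 and 723 CPM in PLDLS 1 and 2, 391.9 and 781 in PLASS 1 and 2, and 346 and 458 in EV 1 and 2. PLDLS and PLASS overlapped, and both PLDLS libraries lay above both EV libraries. Its difference with the block was 0.063 ± 0.16 for PLDLS against PLASS and 0.54 ± 0.16 for PLDLS against EV (edgeR adjusted p = 0.122). BCL2L1 was at 93.4 and 73.9 CPM in PLDLS 1 and 2, 101 and 67.6 in PLASS 1 and 2, and 89.0 and 97.5 in EV 1 and 2, and the groups overlapped. Its difference was 0.00033 ± 0.17 against PLASS and -0.17 ± 0.17 against EV. BCL2A1, a target gene of NF-kB, was low in reads, at 4.49 and 7.42 CPM in PLDLS 1 and 2, 5.96 and 9.49 in PLASS 1 and 2, and 4.82 and 14.6 in EV 1 and 2. EV 2 was its highest library and the groups overlapped, with -0.37 ± 0.28 against PLASS and -0.54 ± 0.27 against EV. BCL2 was at 39.9 to 56.7 CPM, with differences of 0.015 against PLASS and -0.20 against EV.

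The pore formers BAX and BAK1 were highest in PLDLS 2. BAK1 was at 40.9 and 57.5 CPM in PLDLS 1 and 2, 37.1 and 38.1 in PLASS 1 and 2, and 37.8 and 39.4 in EV 1 and 2. Both PLDLS libraries exceeded the other 4, PLDLS 1 by little. BAK1 differed by 0.36 ± 0.17 from PLASS with the block (edgeR adjusted p = 0.461). BAX was at 42.8 and 61.8 CPM in PLDLS 1 and 2, 42.02 and 44.0 in PLASS 1 and 2, and 41.7 and 45.3 in EV 1 and 2. Only PLDLS 2 stood apart, the groups overlapped, and the difference of 0.25 ± 0.16 from PLASS was not called (adjusted p = 0.673). Without the block and without PLDLS 2 it was -0.016. BOK ranged from 0.718 to 3.33 CPM, with EV 2 the lowest, and was not called.

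Apart from BMF, the BH3-only genes were not called between groups. PMAIP1 (chr18:59899996-59904305), which encodes NOXA, the selective antagonist of MCL1, was at 25.8 and 57.9 CPM in PLDLS 1 and 2, 30.1 and 100.5 in PLASS 1 and 2, and 18.3 and 57.3 in EV 1 and 2. Replicate 2 exceeded replicate 1 in each group, and the groups overlapped. Its difference with the block was -0.50 ± 0.17 against PLASS (edgeR adjusted p = 0.262) and 0.77 ± 0.17 for PLASS against EV (adjusted p = 0.600). Without the block and without PLASS 2, PLDLS against PLASS turned to 0.46. BID was at 70.1 and 81.1 CPM in PLDLS 1 and 2, 73.5 and 85.2 in PLASS 1 and 2, and 69.3 and 111 in EV 1 and 2, with overlapping groups and -0.066 ± 0.15 against PLASS. BAD was at 5.99 and 11.1 CPM in PLDLS 1 and 2, 6.35 and 6.08 in PLASS 1 and 2, and 5.93 and 8.79 in EV 1 and 2. PLDLS 2 was its highest library and PLDLS 1 lay inside the range of the others, and the difference of 0.35 ± 0.26 from PLASS was not called (adjusted p = 0.751). That of BAD without the block turned to -0.062 without PLDLS 2, and with the block to -0.0070 without PLASS 2. BBC3, BCL2L11 and HRK were not called, with differences from PLASS with the block of -0.032, -0.22 and -0.016.

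**Figure D4:**
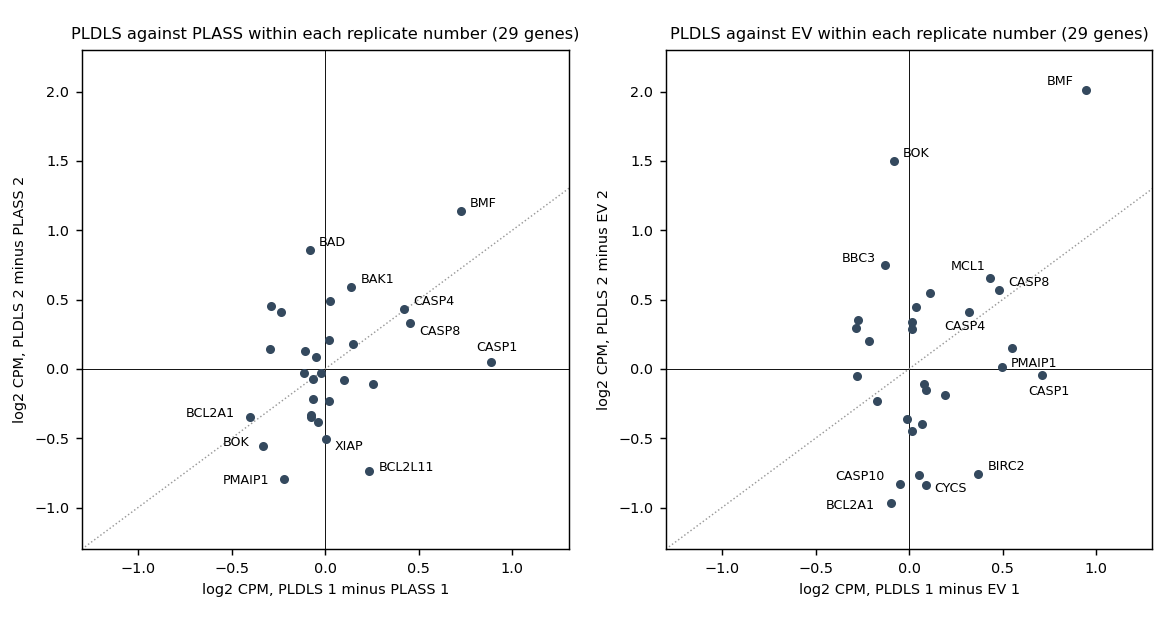
Differences in log2 CPM between PLDLS and PLASS (left) or EV (right) for 29 members, with replicate 1 on the x axis and replicate 2 on the y axis. The dotted line marks equal differences. BCL2L2-PABPN1 is not drawn because PLDLS 2 had 0 reads of it. BMF lies farthest to the upper right (0.72 and 1.14 against PLASS, 0.95 and 2.01 against EV), and 8 of 29 genes were higher and 10 lower in both numbers against PLASS.

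The plot of differences within replicate numbers shows how far the numbers went the same way. Of the 30 tested members, 19 had the same sign in both numbers for PLDLS against PLASS (8 higher and 11 lower), against 61.9% of all genes. For PLDLS against EV it was 16 of 30 (10 higher and 6 lower), against 56.9%, and for PLASS against EV 14 of 30 (7 higher and 7 lower), against 44.0%.

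Caspase-8 is the initiator caspase of death receptors and an inhibitor of necroptosis. CASP8 (chr2:201233463-201287711) was at 68.2 and 60.9 CPM in PLDLS 1 and 2, 49.7 and 48.3 in PLASS 1 and 2, and 48.8 and 40.9 in EV 1 and 2. Both PLDLS libraries lay above the other 4. Its difference with the block was 0.40 ± 0.14 from PLASS (edgeR adjusted p = 0.273) and 0.52 ± 0.14 from EV (adjusted p = 0.0778), with 0.45 and 0.33 within the numbers against PLASS. It was called against PLASS in 1 of 16 settings with the block and in 0 of 15 without it. CASP2, an initiator linked to the DNA damage response, was at 82.5 and 90.9 CPM in PLDLS 1 and 2, 89.3 and 92.6 in PLASS 1 and 2, and 95.7 and 79.1 in EV 1 and 2. These ranges overlapped, with -0.072 ± 0.14 against PLASS. CASP10, the neighbour and relative of CASP8, differed by -0.42 ± 0.20 from EV (adjusted p = 0.354), and CASP6 and CASP9 by -0.0023 and 0.0050.

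Of the inflammatory caspases, caspase-4 senses bacterial lipopolysaccharide in the cytosol and caspase-1 is the protease of inflammasomes. CASP4 (chr11:104942866-104968574) was at 26.3 and 30.1 CPM in PLDLS 1 and 2, 19.6 and 22.2 in PLASS 1 and 2, and 21.0 and 22.5 in EV 1 and 2. Both PLDLS libraries were above the other 4, by 0.42 and 0.43 (log2) against PLASS within the numbers. Its difference with the block was 0.43 ± 0.16 from PLASS (edgeR adjusted p = 0.308) and 0.37 ± 0.16 from EV (adjusted p = 0.296), neither called. CASP1 was at 7.19 and 3.53 CPM in PLDLS 1 and 2, 3.85 and 3.41 in PLASS 1 and 2, and 4.35 and 3.65 in EV 1 and 2. Only PLDLS 1 was high, and the difference of 0.60 ± 0.28 from PLASS (adjusted p = 0.467) rested on it: without PLDLS 1 and without the block it was -0.045.

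At the apoptosome, APAF1 (chr12:98645290-98735433), the scaffold of this complex, was at 95.7 and 69.6 CPM in PLDLS 1 and 2, 86.4 and 61.3 in PLASS 1 and 2, and 94.7 and 57.0 in EV 1 and 2. Replicate 1 exceeded replicate 2 in each group, and the groups overlapped, with 0.16 ± 0.14 for PLDLS against PLASS. CYCS was at 183 and 195 CPM in PLDLS 1 and 2, 193 and 248 in PLASS 1 and 2, and 172 and 348 in EV 1 and 2. EV 2 was its highest library, and its differences of -0.19 ± 0.20 from PLASS and -0.38 ± 0.20 from EV were not called. CYCS has processed copies in the genome, and whether reads were divided with them was not tested. DIABLO, the antagonist of IAP proteins, stayed within 23.2 and 31.05 CPM over the 6 libraries.

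XIAP, which inhibits caspases directly, was at 98.96 and 75.9 CPM in PLDLS 1 and 2, 98.7 and 108 in PLASS 1 and 2, and 86.7 and 86.4 in EV 1 and 2. PLDLS 2 was the lowest and PLASS 2 the highest, and PLDLS and PLASS overlapped by the narrow margin between PLDLS 1 and PLASS 1. BIRC2, a ubiquitin ligase of tumour necrosis factor signalling, was at 104 and 69.2 CPM in PLDLS 1 and 2, 107 and 90.5 in PLASS 1 and 2, and 80.2 and 117 in EV 1 and 2, with overlapping groups. The differences from PLASS with the block were -0.24 ± 0.15 for XIAP (edgeR adjusted p = 0.670) and -0.18 ± 0.23 for BIRC2 (adjusted p = 0.900). Neither BCL2-like gene of other function was called. BCL2L13, a mitophagy receptor, was at 52.2 and 43.6 CPM in PLDLS 1 and 2, 48.6 and 46.2 in PLASS 1 and 2, and 49.0 and 48.4 in EV 1 and 2. BCL2L12 was at 11.6 and 15.0 CPM in PLDLS 1 and 2, 14.2 and 13.6 in PLASS 1 and 2, and 14.1 and 15.6 in EV 1 and 2. The groups overlapped for both, with differences from PLASS of 0.018 ± 0.14 and -0.099 ± 0.19.

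Between the replicate numbers 4 of 30 members were called with the block, beside 17.5% of all genes. This sets 3 libraries against 3, where a comparison of constructs sets 2 against 2. The comparisons of constructs gave 1, 2 and 0 members, beside 2.03%, 4.24% and 0.0137% of all genes. PMAIP1, MCL1 and BCL2A1 were higher and APAF1 lower in the replicate 2 libraries, where edgeR called 17.5% of all genes (7.87% higher and 9.67% lower). The difference was 1.53 ± 0.14 for PMAIP1 (adjusted p = 0.00123), 0.67 ± 0.13 for MCL1 (adjusted p = 0.0139), 1.05 ± 0.22 for BCL2A1 (adjusted p = 0.0178) and -0.56 ± 0.11 for APAF1 (adjusted p = 0.0135). Within PLDLS, PLASS and EV, PMAIP1 shifted by 1.16, 1.74 and 1.64, MCL1 by 0.63, 0.99 and 0.40, BCL2A1 by 0.71, 0.66 and 1.58, and APAF1 by -0.46, -0.49 and -0.73. Each thus moved the same way in all 3 groups, as did 17 of 30 tested members (11 higher and 6 lower), against 57.9% of all genes. The members' median was 0.045 against -0.017 over all genes, and 15 of 30 were positive, against 48.5%. MCL1 and APAF1 lost their calls without PLASS 1 or without PLASS 2 (adjusted p 0.0655 to 0.0922). The labels do not say what the number stands for, and in EV it also goes with the vector. Replicate 2 was the shallower library of each group. PLDLS 1 and 2 had 16437109 and 5582078 reads, PLASS 1 and 2 had 20132920 and 12777337, and EV 1 and 2 had 35800826 and 18932337. How far depth contributed was not tested.

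Beyond the 33 genes, 77 genes of 5 related lists were examined, of which 69 were tested; CARD17 was not analysed here. These lists were drawn up with earlier results of these data known. Without the block edgeR called 0 of the 69 in each comparison, with 5 at an unadjusted p under 0.05 in PLDLS against PLASS, 9 in PLDLS against EV and 1 in PLASS against EV, beside 4.93%, 7.16% and 0.690% of all genes. With it, 1 was called in PLDLS against PLASS (lower), 3 in PLDLS against EV (2 higher and 1 lower) and 0 in PLASS against EV, beside the 2.03%, 4.24% and 0.0137% of all genes given above. At an unadjusted p under 0.05 they were 16, 20 and 2 with the block, beside 11.5%, 15.9% and 3.35% of all genes. Their medians with the block were 0.11, 0.087 and 0.035 in this order, against -0.0064, -0.019 and -0.0032 over all genes.

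In the list of death receptor signalling (18 genes, 16 tested), MLKL, the pore-forming executor of necroptosis, was higher with PLDLS than with EV. MLKL was at 59.5 and 52.0 CPM in PLDLS 1 and 2, 28.4 and 30.3 in PLASS 1 and 2, and 27.8 and 17.9 in EV 1 and 2. Both PLDLS libraries lay above the other 4, and MLKL differed by 1.296 ± 0.19 from EV (edgeR with the block, adjusted p = 0.00816) and 0.92 ± 0.19 from PLASS (adjusted p = 0.0516). Without the block the adjusted p of MLKL was 0.159 and 0.495. TNFRSF10B, a receptor of TRAIL, had the highest mean level of the list, at 137 to 189 TPM over the libraries, though not the highest in each.

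In the list of IAP proteins and their antagonists (8 genes, 7 tested), XAF1, an antagonist of XIAP, was lower with PLDLS. XAF1 was at 3.71 and 3.71 CPM in PLDLS 1 and 2, 7.89 and 8.76 in PLASS 1 and 2, and 9.95 and 7.96 in EV 1 and 2. Both PLDLS libraries lay below the others, by -1.17 ± 0.24 against PLASS (edgeR with the block, adjusted p = 0.0471) and -1.28 ± 0.23 against EV (adjusted p = 0.0181). Without the block the adjusted p of XAF1 was 0.420 and 0.197. BIRC5 (survivin) had the highest mean of this list, at 49.8 to 93.6 TPM, though not the highest level in each library.

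In the list of execution and mitochondrial factors (15 genes, all tested), LMNA, which encodes the nuclear lamins that effector caspases cleave, was higher with PLDLS than with EV. LMNA was at 758 and 1250 CPM in PLDLS 1 and 2, 308 and 840 in PLASS 1 and 2, and 273 and 306 in EV 1 and 2. PLASS 2 lay above PLDLS 1, so these groups overlapped, and LMNA differed by 1.72 ± 0.26 from EV (edgeR with the block, adjusted p = 0.00874) and 0.90 ± 0.25 from PLASS (adjusted p = 0.149). Without the block the adjusted p against EV was 0.240. LMNA was also the most abundant gene of the list in mean TPM (563). No gene of the inflammasome list (16 genes, 12 tested, with the highest mean for IL18, at 65.9 to 103 TPM) or of the BCL2-associated regulators (20 genes, 19 tested, with the highest mean for TMBIM6, at 345 to 430 TPM) was called between groups.

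Between the replicate numbers, 15 of the 69 were called with the block, 10 higher and 5 lower in replicate 2, beside 7.87% and 9.67% of all genes. The higher ones included the pro-survival kinase gene PIM3 at 1.42 ± 0.12 (log2, edgeR adjusted p = 0.000835), BIRC3 (cIAP2) at 1.52 ± 0.41 (adjusted p = 0.0384), NINJ1, a membrane rupture protein gene, at 0.99 ± 0.18 (adjusted p = 0.0110), and NLRP3 at 0.74 ± 0.14 (adjusted p = 0.0130). The others were TRAF1, BNIP1, ENDOG, VDAC2, VDAC3 and LMNA, from 0.45 to 1.10. The lower ones were CARD8, at -1.11 ± 0.12 (adjusted p = 0.00208), NLRC4, BIRC7, BIRC6 and BNIP3L, from -0.99 to -0.36. BIRC3, TRAF1 and BCL2A1 each had their highest library in EV 2, at 77.1, 43.8 and 14.6 CPM.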

How the data were processed

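Poly-A RNA of 6 MUTZ3 libraries (PLDLS, PLASS and EV, 2 each) was sequenced. The submitters' processing notes list Salmon 0.3.1, bcl2fastq 1.8.4 and, as build, hg38. The deposited tables hold the authors' estimated counts per RefSeq transcript, not normalized, per the file headers. Levels are the TPM values as deposited. The deposited effective length served only as an offset in an alternative fit.

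Of 69004 transcripts, 68195 were named from RefSeq (GRCh38.p14) and 410 from GENCODE, giving 27722 genes; 399 without a gene name (0.0670% to 0.0891% of reads) were left out. Sums per gene, rounded to whole reads, were tested with edgeR 4.0.16 in R 4.3.3 (quasi-likelihood, TMM, filterByExpr, Benjamini-Hochberg over 14631 genes). The SE given with an edgeR difference is the size of the difference divided by the square root of the F statistic of its test. The fit without a block left 3 residual degrees of freedom and a common biological coefficient of variation of 0.236, and that with the replicate number as a block 2 and 0.130. Differences between the numbers correlated between groups across genes at 0.490 (PLDLS and PLASS), 0.428 (PLDLS and EV) and 0.542 (PLASS and EV). The numbers were therefore treated as pairing libraries. This is inferred from the data: an experiment number in the names of the deposited tables matches the replicate number, and the labels leave its meaning unstated. Replicate 2 was also the shallower library of each group, and the part of depth in these correlations was not tested. Replicates of a group differed by more than sampling noise (chi-square per gene 18.3 for PLDLS, 36.0 for PLASS and 79.8 for EV), so each counted as a library of its own. These values grow with depth and do not rank the groups by spread, and that of EV also holds the difference of vectors.

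Members and lists were chosen with earlier results of these data known. Values of every library are given for members called in any comparison in either fit, for the 2 members of each role with the highest mean TPM, for the 10 with the smallest p in PLDLS against PLASS with the block, and for BCL2L2 with its readthrough. From the related lists, called genes and the most abundant one are given. Alternatives were DESeq2 1.42.0, limma-voom (limma 3.58.1), DESeq2 size factors, upper-quartile scaling, no filter, the effective-length offset, 1 CPM in 4 libraries, a fit on just the compared groups, and leaving out each library, each without and with the block. The fits were also run on simulated counts with known changes, 1 spread for all genes and a replicate shift shared by the groups. That setting assumes the pairing, so it cannot decide between the fits without and with the block, and no result rests on it. Depth ran from 5582078 to 35800826 reads, and the precision of low genes was lowest in PLDLS 2.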

Additional observations from a re-analysis of the deposited data

How the results depend on the processing

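With the replicate number as a block (the pairing), edgeR called 1 member in PLDLS against PLASS and 2 in PLDLS against EV, where it called 0 without it; PLASS against EV stayed at 0. Without the block, members called were 1 (PLDLS against PLASS) and 2 (PLDLS against EV) with DESeq2, and 2 and 2 with no filter (1.14% and 2.24% of all genes). With the block, PLDLS against PLASS gave 1 with DESeq2 (BMF, higher, and not the readthrough), 1 with DESeq2 size factors, 1 with upper-quartile scaling, 2 with no filter (2.80% of all genes), 1 at 1 CPM in 4 libraries and 4 with only the groups compared (7.87% of all genes). It gave 0 with limma-voom, with the effective-length offset and with BCL2L2 and its readthrough counted as 1 gene. Where no share is given, 1.75% to 2.24% of all genes were called. PLDLS against EV gave 1 with DESeq2, 3 with no filter (4.87% of all genes), 1 with BCL2L2 and its readthrough counted as 1 gene (chosen after seeing the data) and 2 with limma-voom, DESeq2 size factors, upper-quartile scaling, 1 CPM in 4 libraries, the effective-length offset and only the groups compared, with 3.32% to 5.70% of all genes called over these settings. Replicate 2 against replicate 1 gave 4 (17.5% of all genes), 6 with DESeq2 (10.5%), 7 with no filter (15.7%) and 7 with the effective-length offset (22.3%). Leaving out each library in turn with the block gave 1 to 3 members in PLDLS against PLASS, 2 to 12 in PLDLS against EV, 0 to 6 in PLASS against EV and 2 to 7 between the numbers; the highest counts of the 3 group comparisons came without EV replicate 1. Without the block all of these gave 0 in the group comparisons.

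The differences below changed sign, and none of them was called in either fit. In PLDLS against PLASS without the block, leaving out 1 library gave -0.016 (without PLDLS replicate 2) to 0.52 for BAX, -0.062 (without PLDLS replicate 2) to 0.84 for BAD, -1.35 to 0.46 (without PLASS replicate 2) for PMAIP1 and -0.045 (without PLDLS replicate 1) to 0.97 for CASP1. BAD was -0.0070 with the block without PLASS replicate 2. In PLASS against EV, the readthrough ran from -0.14 without EV replicate 2, and -0.12 without PLASS replicate 2, to 0.39 without EV replicate 1, and with the block -0.056 with limma-voom, -0.51 without PLASS replicate 2 and -0.16 without EV replicate 2. The cause was not tested. None of the 156 transcripts of members has a copy suffix, so leaving such transcripts out changes no level. Where a group was left with 1 library, it was assumed to vary like the others. With the block, the share of all genes called also moved between the fits that left out a library. In each comparison that share was highest without EV replicate 1, so the spread in members called was not theirs alone. With 2 libraries a group, differences of low genes in PLDLS 2, the shallowest library, were the least precise.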
